A study of Mus musculus with 36 samples.

Results

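The 37 genes described here encode proteins that take up, trap, transport, oxidize and store fatty acids in muscle, together with the factors that regulate them. They were chosen by gene symbol, and all 37 were found among the 51912 genes of the count tables. RNA-seq had been done on whole TA (tibialis anterior) and soleus muscles of 3-month-old C57BL/6 mice, with 9 libraries for each muscle of WT and of ∆Ig3-MuSK mice. ∆Ig3-MuSK mice are homozygous for a Musk allele made with CRISPR-Cas9, which lacks the exons that encode the Ig3 domain, the part of this muscle receptor kinase that binds BMPs. WT mice carry the intact gene, and no group received a treatment. The allele is present in the whole body from conception, and a whole muscle holds vessels, nerve, connective tissue and fat beside its fibers. The study compared the genotypes within each muscle to learn how the MuSK-BMP pathway acts in a fast and a slow muscle, and these genes are set out here across all 4 groups.

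Muscle fibers take fatty acids from the blood after lipoprotein lipase has freed them from triglyceride, bind them to carrier proteins and activate them to acyl-CoA. The carnitine shuttle moves the acyl groups into mitochondria, where the enzymes of beta-oxidation shorten them step by step and pass electrons to the respiratory chain. Malonyl-CoA blocks the entry into mitochondria, and PPAR transcription factors raise many of these genes when fatty acids are plentiful, as in fasting. Slow fibers, which fill much of the soleus, rely on fatty acids more than the fast fibers of the TA.

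Gene counts added up to 49287472 to 78660422 reads in a TA library and to 43492062 to 60426556 reads in a soleus library. Values are given as CPM, the counts of a gene relative to the size of its library, scaled with edgeR's TMM factors over the 36 libraries. The 8 slow-fiber markers (such as Myh7) summed to between 72.5 and 215 CPM in the TA libraries and between 21750 and 31480 CPM in the soleus libraries. Musk lay between 2.87 and 5.58 CPM in WT TA, between 2.62 and 4.01 CPM in ∆Ig3-MuSK TA, between 12.5 and 18.4 CPM in WT soleus and between 8.07 and 17.5 CPM in ∆Ig3-MuSK soleus. Because reads over the whole gene were added, the loss of the deleted exons cannot be read from these values. 3 TA libraries stood apart from their groups: over 15819 well-counted genes, their median absolute deviation from the group median was 0.201 (WT TA replicate 3), 0.297 (WT TA replicate 5) and 0.168 (∆Ig3-MuSK TA replicate 3) on the log2 scale, compared with 0.0526 to 0.134 in the other 33 libraries. Without these 3, the number of the 37 genes called stayed at 0 between the genotypes in the TA. It stayed at 32 or more in the soleus and TA comparisons. The genotype comparison in the soleus does not use TA libraries.

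Most of the genes were higher in the soleus than in the TA, in both genotypes. In WT, 33 of the 37 were called higher in the soleus and 1 was called lower (edgeR's quasi-likelihood test, Benjamini-Hochberg adjusted p under 0.05 and at least a 1.2-fold difference). Of all 20841 genes tested, 30.2% were called higher and 27.3% were called lower. The median log2 fold change was 0.91 over the 37 genes and 0.02 over all genes. In ∆Ig3-MuSK, 33 were called higher and 0 lower, against 28.5% and 27.6% of all genes, with a median of 0.99. For 27 of the 37 genes, every WT soleus library was above every WT TA library, which held for 14.6% of all genes. In ∆Ig3-MuSK this was so for 26 of the 37 genes and for 14.8% of all genes. Together the 37 genes took 0.435% ± 0.0454 (SD, n = 9) of the counts in WT TA and 1.19% ± 0.119 (SD, n = 9) in WT soleus. All 8 slow-fiber markers were called higher in the soleus, with a median log2 fold change of 8.68 in WT. Myh2, the marker of fast IIa fibers, was also called higher there, by 3.85 in WT and 3.61 in ∆Ig3-MuSK. The 4 markers of fast IIb fibers were called lower, with a median of −3.84 in WT, and the fast IIx marker was not called (−0.07 in WT). In whole muscle, more fibers of a type and more RNA per fiber cannot be told apart.

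**Figure D1:**
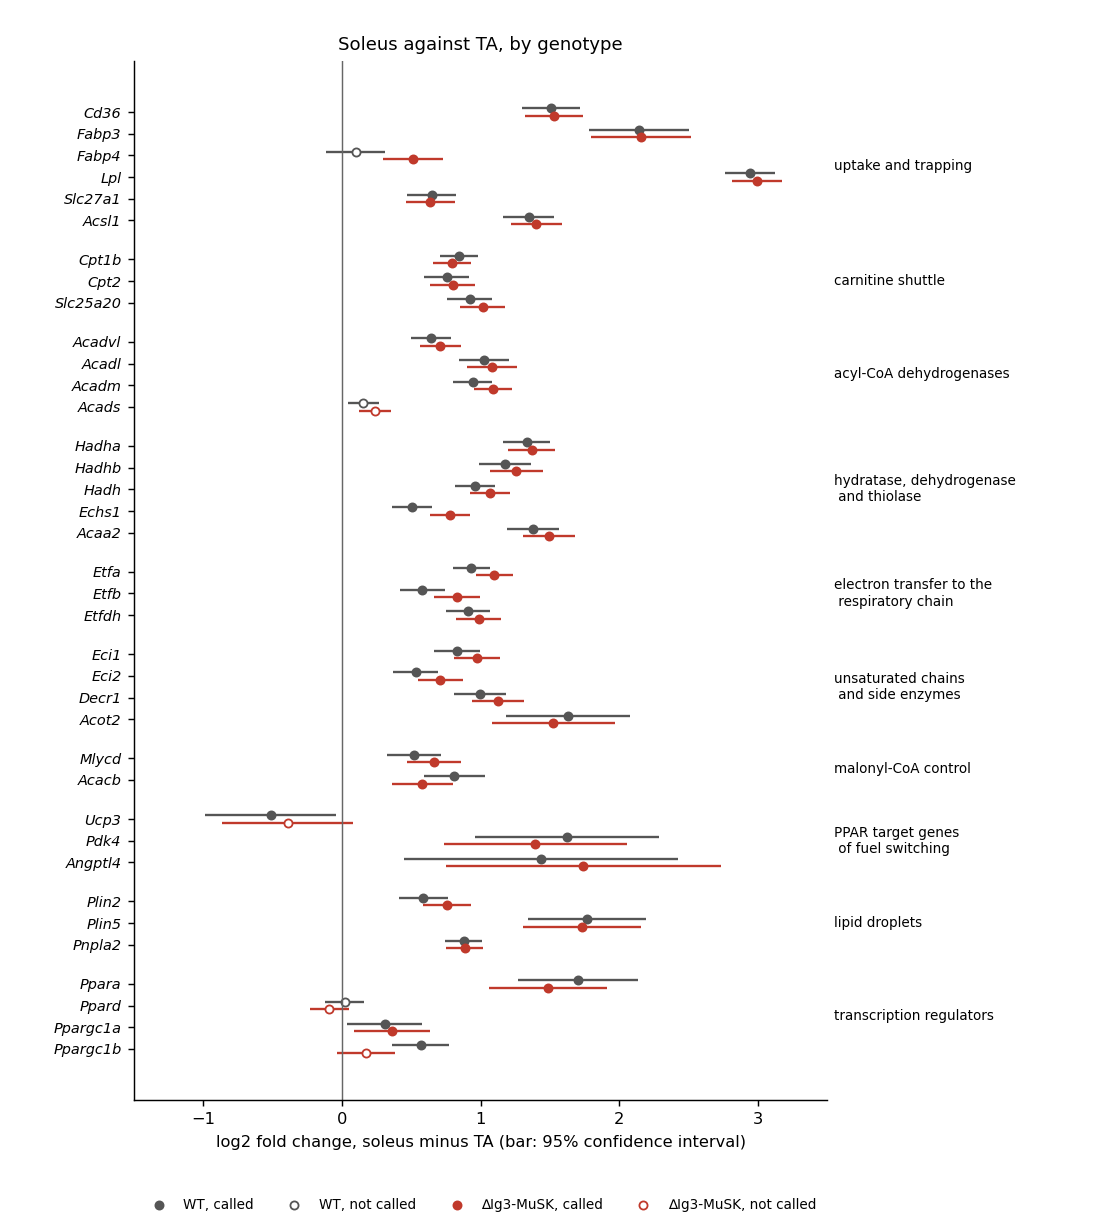
Log2 fold change of each of the 37 genes between soleus and TA (x axis, soleus minus TA), in WT (gray) and ∆Ig3-MuSK (red), with genes grouped by role on the y axis. Points are edgeR estimates from 9 libraries a group, bars are 95% confidence intervals, and open points were not called. Nearly all genes lie to the right of 0, Lpl farthest at 2.94 in WT, and Ucp3 lies to the left at −0.51.

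Among the genes of uptake and trapping, 5 of 6 were called higher in the WT soleus and all 6 in the ∆Ig3-MuSK soleus. Lpl encodes lipoprotein lipase, which releases fatty acids from circulating triglyceride. It lies on chromosome 8 of GRCm38 from 68880491 to 68907448. Its lowest, median and highest values were 221, 278 and 318 CPM in WT TA and 1853, 2145 and 2443 CPM in WT soleus. In ∆Ig3-MuSK they were 175, 281 and 329 CPM in the TA and 1957, 2328 and 2469 CPM in the soleus. The muscles did not overlap in either genotype, and the log2 fold change was 2.94 in WT (standard error 0.09, adjusted p = 3.29e-26) and 2.99 in ∆Ig3-MuSK, the widest difference among the 37 genes.

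Fabp3, the fatty acid binding protein of heart and muscle, had the next widest difference. It lies on chromosome 4 from 130308595 to 130315463. Its lowest, median and highest values were 121, 209 and 278 CPM in WT TA and 613, 961 and 1117 CPM in WT soleus. In ∆Ig3-MuSK they were 123, 148 and 300 CPM in the TA and 520, 740 and 1035 CPM in the soleus. Again the muscles did not overlap, with log2 fold changes of 2.14 (standard error 0.18, adjusted p = 2.91e-13) and 2.16. Cd36, which encodes the main fatty acid translocase of the fiber membrane, rose by 1.51 in WT, and Acsl1, which joins fatty acids to CoA, rose by 1.35. Slc27a1 encodes a fatty acid transport protein and rose by 0.65.

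Fabp4, the fatty acid binding protein of fat cells and of capillary endothelium, was the exception in WT. Its WT values were 155, 168 and 260 CPM in the TA and 172, 190 and 270 CPM in the soleus, so that the muscles overlapped, with a log2 fold change of 0.10 (adjusted p = 0.428). In ∆Ig3-MuSK it was called higher in the soleus, by 0.51 (adjusted p = 6.66e-05). The 9 endothelial markers summed to between 320 and 372 CPM in WT TA, 376 and 489 CPM in WT soleus, 324 and 382 CPM in ∆Ig3-MuSK TA and 334 and 441 CPM in ∆Ig3-MuSK soleus. The adipocyte markers other than Car3, which fibers also express, summed to between 23.3 and 98.6 CPM in WT TA, 78.0 and 357 CPM in WT soleus, 25.7 and 91.9 CPM in ∆Ig3-MuSK TA and 38.6 and 304 CPM in ∆Ig3-MuSK soleus. Of the 10 adipocyte markers, 8 were called higher in the WT soleus and 9 in the ∆Ig3-MuSK soleus. The 3 brown adipocyte markers summed to at most 6.51 CPM in any library, and 0 markers of these lists were at 0 in every library. Their part in the values of Fabp4, Lpl and the lipid droplet genes was not tested.

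Of the 19 genes of the carnitine shuttle, the dehydrogenases, the rest of the spiral, electron transfer and the side enzymes, all but Acads were called higher in both genotypes, by less than Lpl and Fabp3. All 3 shuttle genes were called higher in the soleus in both genotypes without overlap between the muscles. In WT, Cpt1b, the muscle form of the acyltransferase that commits fatty acids to oxidation, rose by 0.84, Slc25a20, the carnitine-acylcarnitine carrier, by 0.92, and Cpt2, the acyltransferase of the inner membrane, by 0.75. The annotated exons of Cpt1b share 81.4% of their length with Gm44502, a readthrough gene on the same strand that is not among the genes counted.

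Of the acyl-CoA dehydrogenases, which take the first step of each round on very long, long, medium and short chains, 3 of 4 were called. Acadvl rose by 0.64, Acadl by 1.02 and Acadm by 0.94 in WT. Acads, which acts on the shortest chains, differed by 0.15 in WT (adjusted p = 0.0161) and 0.24 in ∆Ig3-MuSK (adjusted p = 0.000328), less than the 1.2-fold needed, and its muscles overlapped. Exons of Acadvl overlap those of Dvl2 on the opposite strand over 42.9% of their length, and counts of Dvl2 were 53.6% to 63.2% of those of Acadvl. The libraries kept no strand information, so reads in this overlap cannot be assigned to either gene.

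The hydratase, dehydrogenase and thiolase genes, which complete each round, were all called higher and did not overlap. Hadha and Hadhb encode the alpha and beta subunits of the trifunctional protein for long chains and rose by 1.33 and 1.17 in WT. Acaa2, a thiolase, rose by 1.38, Hadh, the dehydrogenase for shorter chains, by 0.96, and Echs1, the short-chain hydratase, by 0.51. The 3 genes that hand electrons to the respiratory chain were also called in both genotypes, Etfa by 0.93, Etfb by 0.58 and Etfdh by 0.91 in WT. Etfa and Etfb encode the subunits of the electron transfer flavoprotein and Etfdh its dehydrogenase. Etfb shares 53.0% of its exon length with Gm45233 on the same strand, and counts of Gm45233 were 92.3% to 95.3% of those of Etfb in each library, and whether the counts of both genes share reads cannot be told from them.

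The side enzymes and the malonyl-CoA genes rose as well. Eci1 and Eci2 shift the double bonds of unsaturated chains and rose by 0.83 and 0.53 in WT, and Decr1, which reduces such bonds, rose by 0.99. Acot2, a mitochondrial acyl-CoA thioesterase, rose by 1.63. Its values were 10.6, 13.2 and 24.2 CPM in WT TA and 32.5, 47.4 and 57.6 CPM in WT soleus, without overlap. Acacb makes malonyl-CoA at the mitochondrion and Mlycd breaks it down, and both were called higher in the soleus in both genotypes. Acacb rose by 0.81 in WT and 0.58 in ∆Ig3-MuSK, and Mlycd by 0.52 and 0.66.

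The 3 lipid droplet genes were called higher in both genotypes. Plin5 encodes the droplet protein that tethers droplets to mitochondria and lies on chromosome 17 from 56111601 to 56117596. Its values were 8.42, 14.9 and 23.0 CPM in WT TA and 37.3, 53.3 and 65.4 CPM in WT soleus, and 6.22, 13.7 and 31.0 CPM in ∆Ig3-MuSK TA and 34.9, 46.1 and 76.6 CPM in ∆Ig3-MuSK soleus. The muscles did not overlap, and the log2 fold change was 1.77 in WT (standard error 0.21, adjusted p = 2.02e-09) and 1.73 in ∆Ig3-MuSK. Pnpla2, the triglyceride lipase of droplets, rose by 0.88 in WT and Plin2, a general droplet coat protein, by 0.58.

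The regulators did not move alike. Ppara, the PPAR that turns on oxidation genes in the fasted state, lies on chromosome 15 from 85734983 to 85802819. Its values were 2.04, 6.20 and 10.01 CPM in WT TA and 14.1, 19.9 and 30.4 CPM in WT soleus, and 5.40, 9.54 and 12.8 CPM in ∆Ig3-MuSK TA and 14.4, 20.9 and 42.7 CPM in ∆Ig3-MuSK soleus. The muscles did not overlap, with log2 fold changes of 1.70 (standard error 0.21, adjusted p = 7.26e-09) and 1.49. Ppard, another PPAR of muscle, differed by 0.02 in WT (95% confidence interval −0.12 to 0.16, adjusted p = 0.835) and by −0.09 in ∆Ig3-MuSK. Ppargc1a, the coactivator of mitochondrial biogenesis, was called in WT at 0.31 (adjusted p = 0.0418), but only 15 of 29 other fits and sets of libraries also called it. In ∆Ig3-MuSK it was called at 0.36 (adjusted p = 0.0180), also in 29 of 30 other fits and sets. Its relative Ppargc1b was called in WT at 0.57 and not in ∆Ig3-MuSK, where it was 0.17 (adjusted p = 0.138).

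Pdk4, Angptl4 and Ucp3 are standard PPAR target genes of the switch to fatty acids. Pdk4, the kinase that shuts off glucose oxidation at pyruvate dehydrogenase, lies on chromosome 6 from 5483351 to 5496309. Its values were 136, 315 and 628 CPM in WT TA and 587, 1029 and 1447 CPM in WT soleus, which overlapped narrowly, and the log2 fold change was 1.62 (standard error 0.33, adjusted p = 4.36e-05). In ∆Ig3-MuSK they were 87.5, 284 and 973 CPM in the TA and 511, 790 and 2107 CPM in the soleus, with a log2 fold change of 1.39. Angptl4, a secreted inhibitor of lipoprotein lipase, was called at 1.44 in WT and 1.74 in ∆Ig3-MuSK, with standard errors of 0.49 in both.

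Ucp3, a mitochondrial carrier that is raised when fatty acid supply is high, went the other way. It lies on chromosome 7 from 100472990 to 100486432. Its values were 79.6, 83.8 and 131 CPM in WT TA and 50, 58.2 and 112 CPM in WT soleus. The groups overlapped, and the log2 fold change was −0.51 (standard error 0.23, adjusted p = 0.0495), just past the limit. Leaving out any of 10 single libraries, or the 3 TA libraries that stood apart, ended this call (adjusted p = 0.0759 without the 3). In ∆Ig3-MuSK it was −0.39 and was not called (adjusted p = 0.134).

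Levels of different genes were compared per kilobase of their principal transcript. On this scale Fabp3 was the highest of the 37 genes in every group, with mean levels of 246 CPM per kilobase in WT TA, 203 in ∆Ig3-MuSK TA, 1086 in WT soleus and 906 in ∆Ig3-MuSK soleus. Angptl4 was the lowest in every group, between 0.887 and 2.96 CPM per kilobase. Lpl was at rank 12 in the TA of both genotypes and at rank 2 in the soleus of both. With the length of all annotated exons in place of the principal transcript, Fabp3 and Angptl4 kept these places, whereas Fabp4 moved from rank 2 to rank 13 in WT TA.

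The effect of genotype was small beside that of the muscle. In the TA, 0 of the 37 genes were called (edgeR's quasi-likelihood test with Benjamini-Hochberg adjustment), against 3 of 20075 genes or 0.0149% overall. At an unadjusted p under 0.05, 2 were higher and 3 were lower in ∆Ig3-MuSK, which was so for 12.2% and 12% of all genes. DESeq2 and limma-voom also called 0 of the 37. Both called more of all genes than edgeR did, but a share small enough that 0 of 37 lies close to it. Their counts over all genes are given with the alternatives. The median log2 fold change of the 37 was −0.07, compared with −0.0032 over all genes, and 25 of the 37 were negative. The difference between the medians was −0.06 to −0.07 under all 4 scalings tried. Of the 19 genes of the carnitine shuttle, the dehydrogenases, the rest of the spiral, electron transfer and the side enzymes, 17 were negative, and Cpt1b (0.02) and Acot2 (0.17) were positive. Of all 20075 genes, 10174 were negative. The 37 genes covaried over the TA libraries, with a median r of 0.64 over their 666 pairs, so their signs are not independent. The 95% confidence intervals of 31 genes lay within 1.5-fold in either direction, and those of 10 within 1.2-fold. The widest was that of Angptl4, from −1.12 to 0.80.

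**Figure D2:**
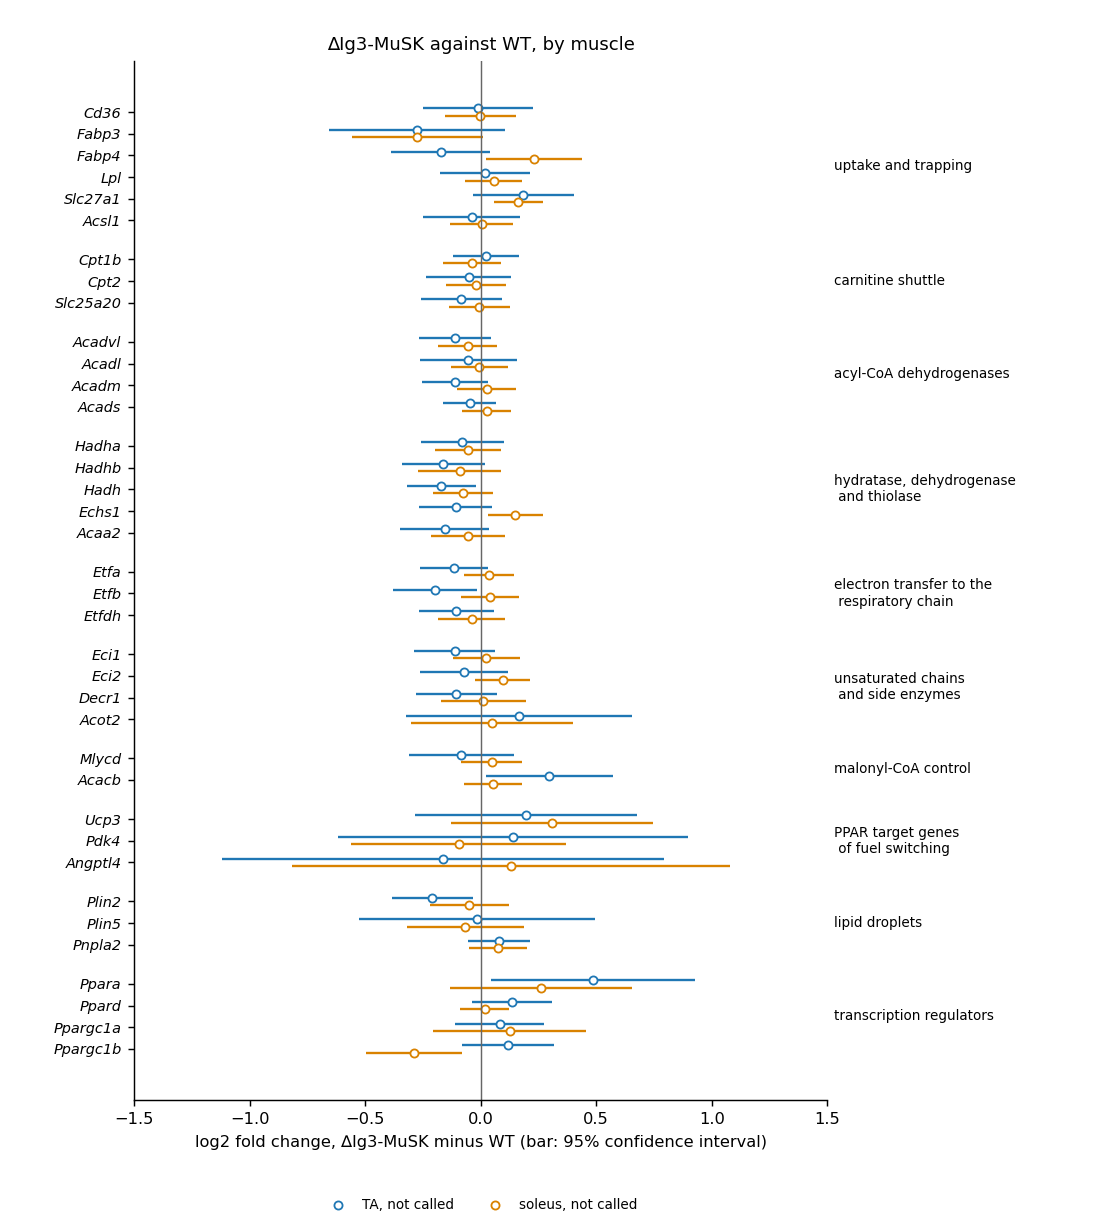
Log2 fold change of each of the 37 genes between the genotypes (x axis, ∆Ig3-MuSK minus WT), in the TA (blue) and the soleus (orange), with genes grouped by role on the y axis. Points are edgeR estimates from 9 libraries a group and bars are 95% confidence intervals; all points are open because none was called. Ppara in the TA lies at 0.49 and Ppargc1b in the soleus at −0.29.

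Ppara, Acacb and Slc27a1 had the smallest p-values among the genes that were higher in ∆Ig3-MuSK TA. Ppara was at 2.04, 6.20 and 10.01 CPM in WT TA and at 5.40, 9.54 and 12.8 CPM in ∆Ig3-MuSK TA. The groups overlapped, and the log2 fold change was 0.49 (standard error 0.21, adjusted p = 0.181). Acacb was at 130, 240 and 333 CPM in WT and 224, 284 and 355 CPM in ∆Ig3-MuSK, or 0.30 on the log2 scale (standard error 0.13, adjusted p = 0.187). For Slc27a1, 88.9, 105 and 129 CPM in WT stood against 88.0, 120 and 184 CPM in ∆Ig3-MuSK, or 0.18 on the log2 scale (standard error 0.11, adjusted p = 0.275). The 2 groups covered nearly the same range for Slc27a1 apart from its highest ∆Ig3-MuSK library.

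Plin2, Hadh and Etfb had the smallest p-values among those that were lower. Plin2 was at 17.6, 18.7 and 29.3 CPM in WT TA and at 14.9, 17.04 and 19.95 CPM in ∆Ig3-MuSK TA, or −0.21 on the log2 scale (standard error 0.08, adjusted p = 0.169). Hadh was at 103, 116 and 146 CPM in WT and at 86.9, 99.7 and 123 CPM in ∆Ig3-MuSK, or −0.17 on the log2 scale (standard error 0.07, adjusted p = 0.172). The highest WT library of Plin2 and of Hadh was replicate 5, among those that stood apart. Without the 3 libraries that stood apart, the log2 fold changes were −0.11 for Plin2, −0.15 for Hadh and 0.19 for Acacb. Etfb was at 117, 135 and 183 CPM in WT and at 110, 115 and 153 CPM in ∆Ig3-MuSK, or −0.20 on the log2 scale (standard error 0.09, adjusted p = 0.186). In all 3 the groups overlapped.

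In the soleus, 0 of the 37 genes were called by edgeR, against 185 of 19439 genes or 0.952% overall. At an unadjusted p under 0.05, 3 were higher and 1 was lower, compared with 8.48% and 10.1% of all genes. DESeq2 called 0 of the 37 and a small share of all genes, though more than edgeR, as given with the alternatives. Limma-voom with sample quality weights called 1, Ppargc1b, as lower, where it called 3.36% of all genes. The median log2 fold change was 0.02 over the 37 genes and −0.0017 over all genes, with 21 positive and 16 negative. With library size alone as the scaling, 8 were positive and 29 negative, while the median of all genes moved to −0.08. The 95% confidence intervals of 34 genes lay within 1.5-fold and those of 24 within 1.2-fold. All 3 shuttle genes lay between −0.04 and −0.01.

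Slc27a1, Echs1 and Fabp4 had the smallest p-values among the genes that were higher in ∆Ig3-MuSK soleus. Slc27a1 was at 153, 170 and 183 CPM in WT and at 166, 189 and 223 CPM in ∆Ig3-MuSK, or 0.16 on the log2 scale (standard error 0.05, adjusted p = 0.105). Echs1 was at 112, 122 and 141 CPM in WT and at 121, 142 and 161 CPM in ∆Ig3-MuSK, or 0.15 on the log2 scale (standard error 0.06, adjusted p = 0.162). For Fabp4, 172, 190 and 270 CPM in WT stood against 177, 231 and 296 CPM in ∆Ig3-MuSK, or 0.23 on the log2 scale (standard error 0.10, adjusted p = 0.217). All 3 pairs of groups overlapped. All 10 adipocyte markers were positive in the soleus, with a median log2 fold change of 0.48 and 0 called, and 8 of 9 endothelial markers were negative, with a median of −0.11 and 0 called. Their part in the value of Fabp4 was not tested.

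Ppargc1b, Fabp3 and Hadh had the smallest p-values among those that were lower in the soleus. Ppargc1b was at 11.5, 17.1 and 19.9 CPM in WT and at 10.6, 12.4 and 15.3 CPM in ∆Ig3-MuSK. 5 of the 9 WT libraries were above the highest ∆Ig3-MuSK library, and the other 4 lay within its range. The log2 fold change was −0.29 (standard error 0.10, adjusted p = 0.132), and limma-voom with sample quality weights gave −0.35 (adjusted p = 0.0378). Fabp3 was at 613, 961 and 1117 CPM in WT and at 520, 740 and 1035 CPM in ∆Ig3-MuSK, or −0.27 on the log2 scale (standard error 0.14, adjusted p = 0.291). Hadh was at 188, 232 and 246 CPM in WT and at 183, 215 and 244 CPM in ∆Ig3-MuSK, or −0.08 on the log2 scale (standard error 0.06, adjusted p = 0.545). The groups overlapped for Fabp3 and Hadh over most of their range.

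Whether genotype acted unequally in TA and soleus was tested by the interaction over all 36 libraries. By edgeR 0 of the 37 genes passed, and 0.0% of the 20841 genes tested did. At an unadjusted p under 0.05, Fabp4, Echs1 and Etfb were more positive in the soleus and Ppargc1b was more negative, against 13.7% and 11.2% of all genes. The interaction was 0.42 for Fabp4 (standard error 0.15, adjusted p = 0.112), 0.27 for Echs1 (adjusted p = 0.115), 0.25 for Etfb (adjusted p = 0.170) and −0.39 for Ppargc1b (adjusted p = 0.114). Limma-voom with sample quality weights called 1, Fabp4 (0.38, adjusted p = 0.0498), where it called 6.49% of all genes. DESeq2 called 0 of the 37 and a small share of all genes, as given with the alternatives.

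The levels of further gene lists were set beside these comparisons. The 15 circadian clock genes summed to between 629 and 862 CPM in WT TA and between 801 and 1043 CPM in ∆Ig3-MuSK TA. In the soleus they summed to between 466 and 592 CPM in WT and between 585 and 827 CPM in ∆Ig3-MuSK, where 9 were called higher and 2 lower. In the TA 1 was called higher. Of all genes, 0.952% were called in either direction in the soleus and 0.0149% in the TA. In the soleus, the 13 glucocorticoid and fasting response genes summed to 637 to 909 CPM in WT and 757 to 1107 CPM in ∆Ig3-MuSK. Of these genes, 0 were called in either muscle. At an unadjusted p under 0.05, 4 were higher and 1 was lower in the soleus, against 8.48% and 10.1% of all genes. In the TA, 3 were higher and 2 were lower, against 12.2% and 12% of all genes. The 10 immediate early genes were all negative in the soleus, with a median log2 fold change of −0.68 and 1 called lower. The 5 fibroblast and 7 macrophage markers had medians of −0.20 and −0.37 there, with 0 called. The 4 markers of fast IIb fibers were all positive in the soleus, with a median of 0.55 and 0 called, and summed to between 1277 and 10190 CPM in WT and between 2140 and 8210 CPM in ∆Ig3-MuSK. The 8 slow-fiber markers had a median of −0.02 there, with 0 called. The part of these lists in the values of the 37 genes was not tested.

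A further 78 genes of the same pathways (ketone, peroxisomal and minor fatty acid enzymes, pyruvate dehydrogenase control and nuclear receptors) were set beside the 37. In WT, 32 of the 76 tested were called higher in the soleus and 15 lower, and in ∆Ig3-MuSK 35 and 14. Of all genes, 30.2% were called higher and 27.3% lower in WT, and 28.5% and 27.6% in ∆Ig3-MuSK. Between the genotypes in the TA, 0 of 75 were called, with 10 higher and 11 lower at an unadjusted p under 0.05, near the 12.2% and 12% of all genes. The smallest p-values were those of Rxrg, a partner receptor of PPARs (−0.34, adjusted p = 0.135), Plin4, a droplet protein (0.88, adjusted p = 0.145), and Acss1, a mitochondrial acetyl-CoA synthetase (0.45, adjusted p = 0.149).

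In the soleus, 1 of 75 was called higher and 2 were called lower, against 0.952% of all genes called in either direction. Bdh1, which interconverts ketone bodies, had a mean of 238 ± 36.4 CPM in the WT libraries (SD, n = 9), compared with 183 ± 21.9 CPM in those of ∆Ig3-MuSK (SD, n = 9), a log2 fold change of −0.39 (adjusted p = 0.0381). Pdp1, the phosphatase that turns pyruvate dehydrogenase on, had a mean of 38.9 ± 9.94 CPM in the WT libraries (SD, n = 9), compared with 55.0 ± 6.44 CPM in those of ∆Ig3-MuSK (SD, n = 9), a log2 fold change of 0.49 (adjusted p = 0.0381). Pdk3, a kinase that turns it off, had a mean of 1.42 ± 0.222 CPM in the WT libraries (SD, n = 9), compared with 1.02 ± 0.147 CPM in those of ∆Ig3-MuSK (SD, n = 9), a log2 fold change of −0.49 (adjusted p = 0.0390). The 3 calls were lost in 11, 13 and 13 of the 18 fits that left out 1 library, where the highest adjusted p was 0.0797, 0.0790 and 0.0777. Without ∆Ig3-MuSK soleus replicate 1 it was 0.0698, 0.0740 and 0.0546. Pdk4, a kinase of the same family, differed by −0.10 in the soleus (95% confidence interval −0.56 to 0.37).

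The spread within a group was uneven over the roles. The coefficient of variation (SD over mean) of the 3 PPAR target genes lay between 23.2% and 53.9% in WT TA, 51.4% and 118% in ∆Ig3-MuSK TA, 29.6% and 69.8% in WT soleus and 37.9% and 102% in ∆Ig3-MuSK soleus. The median over all 37 genes was 13.99%, 15.96%, 8.81% and 12.3% in the same groups. Acads and Pnpla2 were below these medians in every group, at 8.18% and 6.45% in WT TA and at 6.03% and 7.57% in WT soleus.

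**Figure D3:**
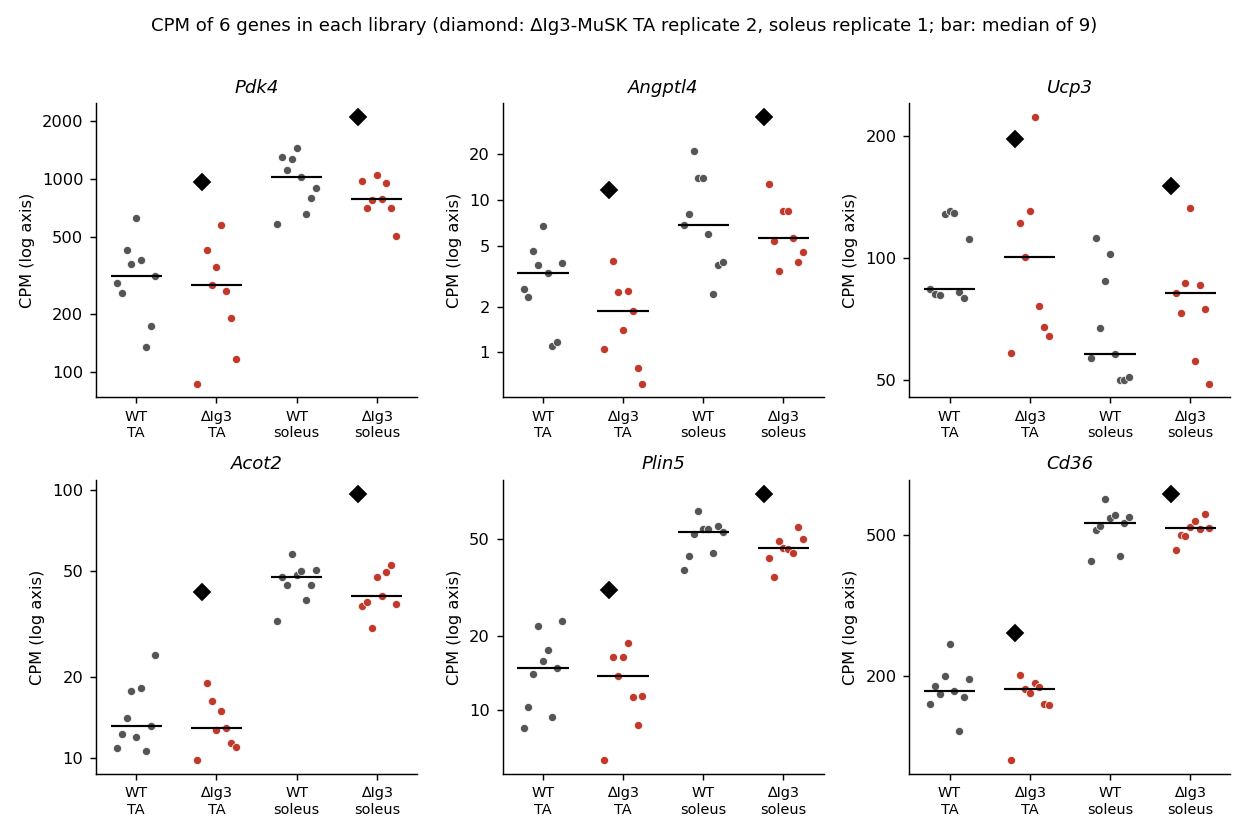
CPM on a log axis of Pdk4, Angptl4, Ucp3, Acot2, Plin5 and Cd36 in each of the 36 libraries, by group (x axis), with WT in gray and ∆Ig3-MuSK in red. Bars are group medians and black diamonds are ∆Ig3-MuSK TA replicate 2 and soleus replicate 1, which reach 973 CPM of Pdk4 in the TA and 2107 CPM in the soleus, above every other library of the same muscle.

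Libraries of a group that were high in Pdk4 tended to be high in most of the other 36 genes. The relation was measured with the genotype means taken out, over the 18 libraries of a muscle, as Pearson's r and Spearman's rho of log2 CPM with 100000 permutations within genotype, 2-sided, and adjustment over the 72 relations. Both values of a pair come from the same library and share its depth and its scaling. In the TA, 31 of 36 genes had a positive r, 30 of them passed the adjustment, and 1 negative r passed. The median r was 0.69, and 0.55 without the 2 libraries farthest from the median of Pdk4. The share of all genes with a positive r and their median r are not given here for either muscle. Among all 20074 other genes tested in the TA, 2.5% had an r of at least 0.58, the lowest positive r that passed. By Spearman's rho 28 passed. With library size alone as the scaling 21 passed with a positive r, without the 3 libraries that stood apart 28 did, and 25 did without ∆Ig3-MuSK TA replicate 2.

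In the TA, Eci2 had the highest r of the 36, at 0.91 (adjusted permutation p = 0.00024), with rho at 0.88 (adjusted permutation p = 0.00072) and r at 0.84 without the 2 farthest libraries. Angptl4 followed at 0.90 (adjusted permutation p = 0.00024, rho 0.88 with adjusted permutation p = 0.00072) and Cd36 at 0.88 (adjusted permutation p = 0.00024, rho 0.79 with adjusted permutation p = 0.00261). The unadjusted p of these 3 was 1e-05, the smallest that the permutations can give. Without the 2 farthest libraries r fell to 0.13 for Slc27a1, 0.24 for Acsl1 and 0.26 for Cpt2, so these 3 relations rest on those libraries. Plin2 was positive and did not pass (0.35, adjusted permutation p = 0.157, rho 0.36). The genes without a positive r were Acacb and the 4 regulators. Ppara was at −0.09, Ppargc1a at −0.02 and Ppard at −0.41, and Ppargc1b passed with a negative r of −0.48 (adjusted permutation p = 0.0278), though not by rho (−0.35, adjusted permutation p = 0.200).

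In the soleus, 34 of 36 had a positive r and 10 passed, with a median r of 0.43. Among all 19438 other genes tested, 1.21% had an r of at least 0.58. Plin2 had the highest r, at 0.91 (adjusted permutation p = 0.00036), with rho at 0.88 (adjusted permutation p = 0.00072) and r at 0.90 without the 2 farthest libraries. Ucp3 had an r of 0.85 (adjusted permutation p = 0.0006, rho 0.83 with adjusted permutation p = 0.00173). Angptl4 had an r of 0.79 (adjusted permutation p = 0.00235, rho 0.77 with adjusted permutation p = 0.00386). Acot2 had an r of 0.77 (adjusted permutation p = 0.00425, rho 0.56 with adjusted permutation p = 0.0386), and 0.57 without the 2 farthest libraries. Ppargc1b was positive here, at 0.60 (adjusted permutation p = 0.0192, rho 0.61 with adjusted permutation p = 0.0283), opposite to its sign in the TA. By Spearman's rho 6 passed, and 4 passed by r without ∆Ig3-MuSK soleus replicate 1. Cd36, Acsl1, Eci2, Acot2, Mlycd, Ucp3, Angptl4 and Plin5 passed with a positive r in both muscles. Over all genes tested, the 5 with the highest r in the TA were Gm16984 (0.92), Retreg1 (0.91), Eci2, Angptl4 and Cd36, of which Gm16984 overlaps Eci2 on the opposite strand. In the soleus they were Plin2, Ucp3, Gm15801 (0.82), Nr2c1 (0.81) and Pank1 (0.81).

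**Figure D4:**
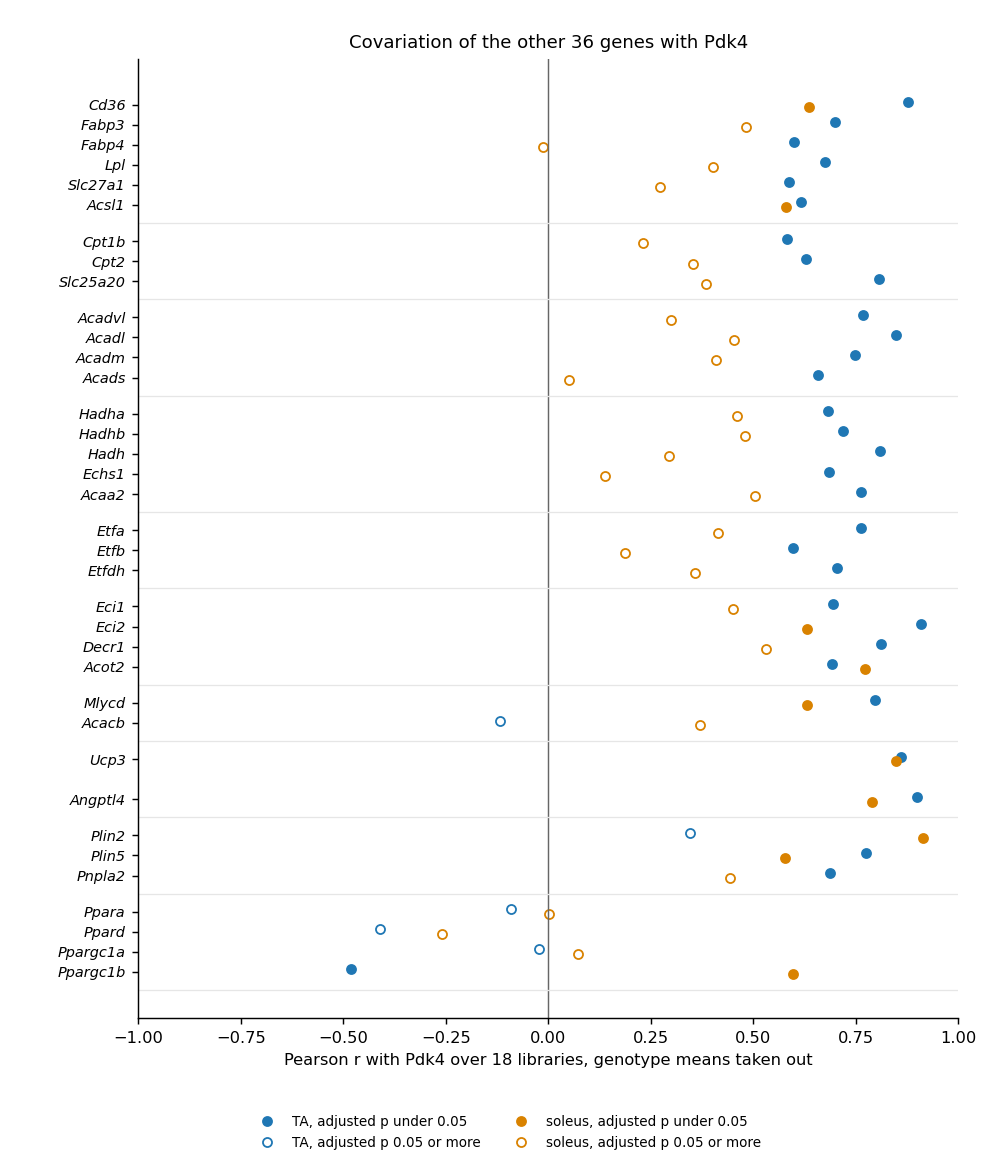
Pearson r of each of the other 36 genes with Pdk4 (x axis) over the 18 libraries of the TA (blue) or the soleus (orange), genotype means taken out. Filled points passed the adjustment over 72 relations, 31 of them in the TA and 10 in the soleus. In the TA most genes of oxidation lie between 0.58 and 0.91 and the 4 regulators lie left of 0.

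The promoters of the genes that covaried with Pdk4 in both muscles were searched for AGGTCA, the half-site that PPARs and other nuclear receptors bind, on both strands. The windows were the 250 bases before a RefSeq start of each gene on GRCm38.p6, and 30 of the 37 genes had one. The Cd36 window lies inside the span of that gene in GENCODE, from 17781690 to 17888801 on the minus strand. It therefore precedes an internal start and not the outermost one. Of these 30, 7 contained the half-site (Cd36, Acadvl, Acadm, Echs1, Ucp3, Plin2 and Plin5), compared with 15.8% of 27025 genes. Of the 8 that covaried in both muscles, 7 had a window and 3 contained it. The direct repeat AGGTCANAGGTCA, which contains the half-site, was in 0 of the 30 and in 0.0407% of all. The 3 windows with a half-site are printed with Pdk4, the gene they covaried with, 5′ to 3′ on the strand of the gene and without annotated exons. Capitals mark the half-site in either direction.
Cd36, chr5:17835897-17836146, minus strand: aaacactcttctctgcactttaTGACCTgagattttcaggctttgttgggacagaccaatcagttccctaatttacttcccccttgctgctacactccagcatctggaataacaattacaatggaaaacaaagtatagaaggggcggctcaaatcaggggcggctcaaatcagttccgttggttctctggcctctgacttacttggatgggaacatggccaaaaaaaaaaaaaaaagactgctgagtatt
Ucp3, chr7:100472741-100472989, plus strand: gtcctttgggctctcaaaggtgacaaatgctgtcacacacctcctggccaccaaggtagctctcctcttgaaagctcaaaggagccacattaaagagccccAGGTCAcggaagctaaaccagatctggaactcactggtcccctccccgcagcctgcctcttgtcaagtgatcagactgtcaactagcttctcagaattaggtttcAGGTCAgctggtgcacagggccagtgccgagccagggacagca
Plin5, chr17:56117597-56117798, minus strand: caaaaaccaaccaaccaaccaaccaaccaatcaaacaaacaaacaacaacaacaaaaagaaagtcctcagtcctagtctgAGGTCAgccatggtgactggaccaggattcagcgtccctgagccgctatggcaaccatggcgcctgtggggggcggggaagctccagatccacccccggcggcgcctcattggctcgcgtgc
Pdk4, chr6:5496310-5496528, minus strand: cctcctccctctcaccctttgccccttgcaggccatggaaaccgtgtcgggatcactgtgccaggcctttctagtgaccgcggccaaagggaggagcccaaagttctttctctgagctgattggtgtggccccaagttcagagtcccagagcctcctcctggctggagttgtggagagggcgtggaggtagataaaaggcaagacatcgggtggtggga
Counted from 1 at the 5′ end of each printed line, the half-site of Cd36 begins at base 23, those of Ucp3 at bases 102 and 207 and that of Plin5 at base 81. These are matches of letters, not measured binding sites.

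Hadha and Hadhb are neighbours that are read away from each other on chromosome 5. The annotated start of Hadha lies at 30155162 on the minus strand and that of Hadhb at 30155248 on the plus strand, so that 85 bases separate them. They are printed here 5′ to 3′ on the plus strand, because both genes rose in the soleus.
Hadha and Hadhb, chr5:30155163-30155247: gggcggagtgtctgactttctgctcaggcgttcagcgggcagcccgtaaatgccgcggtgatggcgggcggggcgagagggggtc
The AGGTCA half-site is not among these letters. Over the 18 soleus libraries, Hadha and Hadhb had an r of 0.94 (permutation p = 1e-05, rho 0.93 with permutation p = 2e-05), and 0.95 without the 2 farthest libraries. Only 5 of the 666 pairs of the 37 genes had a higher r, and the median pair was at 0.57. In the TA the r of Hadha and Hadhb was 0.66 (permutation p = 0.0034, rho 0.58 with permutation p = 0.0227) and fell to 0.37 without the 2 farthest libraries, and 313 of the 666 pairs were higher.

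∆Ig3-MuSK TA replicate 2 and soleus replicate 1, which carry the same number in their labels, were the highest of their group for many of the genes. In the TA this held for 24 of the 37 genes and in the soleus for 21, with 15 in both. These libraries were singled out after the values were seen. The matching share of all genes is not given here, so the counts cannot be read as particular to the 37. Pdk4 was at 973 CPM in the TA, where the other 8 lay between 87.5 and 577 CPM, and at 2107 CPM in the soleus, where the others lay between 511 and 1058 CPM. Angptl4 was at 11.7 CPM in the TA against 0.624 to 3.98 CPM, and at 35.3 CPM in the soleus against 3.44 to 12.8 CPM. Acot2 was at 41.6 CPM in the TA against 9.79 to 19.0 CPM and at 97.1 CPM in the soleus against 30.7 to 52.6 CPM. Ppara was at rank 3 from the top of the 9 libraries in the TA and at rank 5 in the soleus. With these libraries left out, 0 of the 37 genes were called between the genotypes in either muscle. In the TA 0 were higher and 9 were lower at an unadjusted p under 0.05, against 10.7% and 9.79% of all genes in that fit. Leaving out a library singled out for high values in these genes lowers their ∆Ig3-MuSK means, so the 9 cannot be read as genotype effects.

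For 8 WT and 8 ∆Ig3-MuSK numbers, a TA and a soleus library carry the same number. The study describes 1 muscle per animal, and the meaning of these shared numbers is not stated in the sources used here. Each gene's deviation from its genotype mean in the TA was set against that in the soleus over these 16 numbers (permutations within genotype, adjustment over 37 relations), a comparison chosen after the data were seen. The r was positive for 36 of the 37 genes, and for 68.6% of the 18931 genes tested in both muscles. The median over the 37 was 0.58. The relation passed the adjustment for 21 by Pearson's r and for 8 by Spearman's rho, and 5.47% of all genes had an r at or above the lowest that passed (0.58). The median over all genes was 0.15. Without the pair of ∆Ig3-MuSK TA replicate 2 and soleus replicate 1, 5 passed with a median of 0.42, and with library size alone as the scaling 5 passed. Over the 4 alternatives tried, 5 to 18 passed. Pdk4 had the highest r, at 0.86 (adjusted permutation p = 0.00407, rho 0.86 with adjusted permutation p = 0.0037), 0.72 without the 2 farthest numbers and 0.79 without that pair (adjusted permutation p = 0.0294). Angptl4 was at 0.82 (adjusted permutation p = 0.00407, rho 0.76 with adjusted permutation p = 0.0126), Decr1 at 0.82 (adjusted permutation p = 0.00407, rho 0.78 with adjusted permutation p = 0.0126) and Ppara at 0.65 (adjusted permutation p = 0.0171, rho 0.67 with adjusted permutation p = 0.0404). Decr1, Ucp3, Pdk4, Angptl4 and Ppara were the 5 that passed by Pearson's r without that pair. By Spearman's rho only Pdk4 (adjusted permutation p = 0.0252) and Angptl4 (adjusted permutation p = 0.0357) passed without it. Decr1, Ucp3 and Ppara were then at an adjusted permutation p of 0.0778. Over all 16 numbers, Ppargc1b was the gene with a negative r (−0.42, adjusted permutation p = 0.206).

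**Figure D5:**
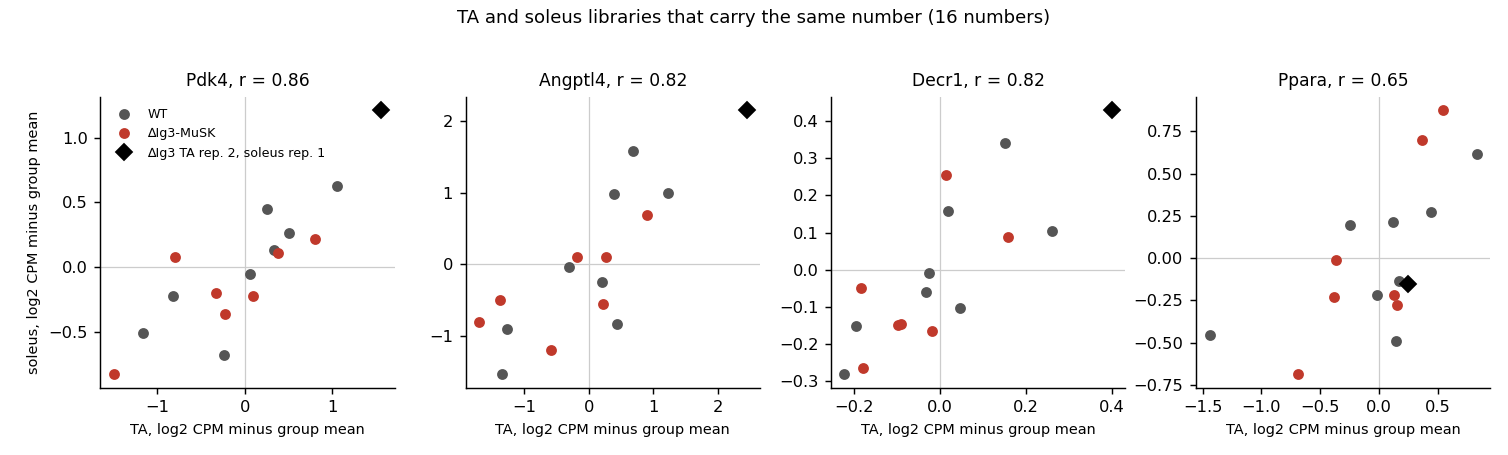
Deviation of log2 CPM from the genotype mean in the TA (x axis) and in the soleus (y axis) of libraries that carry the same number, for Pdk4, Angptl4, Decr1 and Ppara. Gray points are WT, red points are ∆Ig3-MuSK and the black diamond is ∆Ig3-MuSK TA replicate 2 with soleus replicate 1; r is 0.86, 0.82, 0.82 and 0.65. For Ppara the diamond lies near the middle, whereas for the other 3 genes it lies at the upper right.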

How the data were processed

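RNA had been extracted from whole muscles, made into libraries with a kit that does not keep the strand, and sequenced. Per the submitters' processing notes, the authors checked reads with FastQC, trimmed them with Trimmomatic, aligned them to GRCm38 with GSNAP, handled alignments with SAMtools and counted reads per gene with HTSeq. Versions, the annotation release and the counting mode are not given in the sources used here. The deposited values are raw counts per gene, one column per library, and 51633 of the 51912 genes were matched to a symbol and coordinates in GENCODE release M21. Libraries were grouped by the muscle and genotype in their labels.

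Counts were tested with edgeR 4.0.16 in R 4.3.3 (quasi-likelihood test, TMM factors, genes kept by filterByExpr with a minimum count of 10 and a total of 15). The genotypes were compared within the 18 libraries of a muscle, and the muscles and the interaction were fitted over all 36 libraries. P-values were adjusted over all genes tested by the Benjamini-Hochberg method. A gene was called at an adjusted p under 0.05 and at least 1.2-fold, with no fold limit for the interaction. Intervals are 95% confidence intervals of the fit. The study describes 1 muscle per animal, and on that basis p-values measure the spread between animals together with that of library preparation. The muscle and interaction fits treated TA and soleus libraries of the same number as independent. Whether such libraries share an animal is not known, and if they do, these p-values ignore the pairing. Correlations used log2 CPM with a prior count of 2 and 100000 permutations. The scripts were tested on simulated counts.

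Alternatives were DESeq2 1.42.0, limma 3.58.1 (voom with sample quality weights), other scaling factors, other filters, a replicate block, a single fit and leaving out each library. Values in full are given for the 3 genes of smallest p in each direction per genotype comparison and the 4 genes of largest change in each direction between the WT muscles. Of the further pathway genes, those called between genotypes and the 3 of smallest p in each muscle are named. The 37 genes, the further gene lists and the tests were chosen with earlier results of these data known. The removal of the 3 TA libraries, the removal of ∆Ig3-MuSK TA replicate 2 and soleus replicate 1 and the comparison of same-numbered libraries were chosen after seeing the data.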

Additional observations from a re-analysis of the deposited data

Results flagged for a closer look

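Each of the 37 genes was checked in each group for a highest or lowest library that stood far from the other 8 (a gap to its neighbour beyond Dixon's limit for 9 libraries). Of 148 checks 23 passed this limit, where chance passes about 1 in 20, and the checks are not independent because a library enters all 37. Of the 23, 13 came from ∆Ig3-MuSK TA replicate 2 and soleus replicate 1, which carry the same number in their labels.

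TA replicate 2 was the highest ∆Ig3-MuSK TA library for Slc27a1 (184 CPM, the next at 129 CPM), Acsl1 (292 CPM, the next at 212 CPM), Cpt1b (291 CPM, the next at 236 CPM), Cpt2 (66.1 CPM, the next at 50.6 CPM) and Hadha (301 CPM, the next at 231 CPM). It was also the highest there for Acot2 (41.6 CPM), Mlycd (127 CPM), Angptl4 (11.7 CPM) and Plin5 (31.0 CPM). In the soleus, replicate 1 stood apart for Acot2 (97.1 CPM), Pdk4 (2107 CPM), Angptl4 (35.3 CPM) and Plin2 (40.4 CPM, the next at 30.4 CPM). Slc25a20 of the carnitine shuttle and Ucp3 of the PPAR targets did not pass the limit, and the cause was not tested.

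The other 10 checks came from other libraries, 3 of them from 1 library. In WT TA, replicate 5, which stood apart over all genes, was the highest for Hadhb (108 CPM, the next at 85.3 CPM), Hadh (146 CPM, the next at 120 CPM) and Plin2 (29.3 CPM, the next at 20.8 CPM), and replicate 9 was the highest for Cpt2 (60.8 CPM, the next at 51.0 CPM). In ∆Ig3-MuSK TA, Lpl was lowest in replicate 1 (175 CPM, the next at 266 CPM). Etfb was highest in replicate 3 (153 CPM, the next at 131 CPM), which also stood apart over all genes. Ppargc1a was highest in replicate 6 (40.6 CPM, the next at 32.02 CPM) and Ppargc1b in replicate 9 (14.3 CPM, the next at 11.9 CPM). In WT soleus, Fabp4 was highest in replicate 1 (270 CPM, the next at 221 CPM) and Pnpla2 was lowest in replicate 7 (226 CPM, the next at 264 CPM).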

How the results depend on the processing

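Of the 37 genes, 0 were called between the genotypes in the TA under every alternative. In the soleus and in the interaction limma-voom with sample quality weights called 1 each (Ppargc1b and Fabp4) and the other alternatives 0. Leaving out 1 library at a time gave 0 to 0 in these 3 comparisons, 32 to 34 in the WT muscles and 33 to 34 in the ∆Ig3-MuSK muscles, and the other alternatives gave 32 to 35 and 33 to 34. Covariation with Pdk4 passed for 22 to 31 genes in the TA and for 4 to 10 in the soleus, with 4 without ∆Ig3-MuSK soleus replicate 1. Covariation between same-numbered libraries passed for 5 to 18 genes over 4 alternatives. It passed for 5 with library size alone and for 5 without the pair of ∆Ig3-MuSK TA replicate 2 and soleus replicate 1. The cause was not tested. Of 499 values for single named genes under an alternative, 483 kept their direction and their side of the threshold, 1 became past it (Ppargc1b in the soleus) and 15 were no longer past it (all Ucp3 in WT), and 0 reversed. With library size alone, the median of all genes moved to 0.20 in the WT muscles and −0.14 in the interaction. The median of the 37 genes then changed sign in the soleus (−0.06) and the interaction (−0.07), while their difference from all genes stayed at 0.02 and 0.07. Calls over all genes depended on the tool: 3 in the TA by edgeR, 225 by DESeq2 and 150 by limma-voom, 185, 486 and 653 in the soleus, and 0, 186 and 1352 for the interaction. In the TA a single fit of both muscles called 692, the replicate block 0 and the set without the 3 libraries that stood apart 25. In the soleus a single fit called 312, library size alone 317, the replicate block 347 and the set without ∆Ig3-MuSK replicate 1 51.

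Replicate numbers in the titles did not pair the genotypes (the correlations of their deviations were −0.18 to 0.56 for TA pairs and −0.38 to 0.44 for soleus pairs), and with them as a replicate block 0 of the 37 genes were called in either muscle. Numbers shared by TA and soleus libraries gave correlations from 0.02 to 0.41, of which 11 of 16 were over 0.1, and 6 of 16 libraries correlated best with their own number. All 6 were ∆Ig3-MuSK libraries. The correlations lay between 0.06 and 0.41 in ∆Ig3-MuSK and between 0.02 and 0.19 in WT. With this replicate block 33 genes were called in the WT muscles, 34 in the ∆Ig3-MuSK muscles and 0 in the interaction, also 0 with the block as a random effect. With 9 libraries a group, the standard errors of the 37 genes lay between 0.0559 and 0.46 in the TA and between 0.0503 and 0.455 in the soleus. The confidence intervals of Fabp3, Acot2, Ucp3, Pdk4, Angptl4 and Ppara in the TA, and of Ucp3, Angptl4 and Ppara in the soleus, reached past 1.5-fold.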

Other observations

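The further pathway genes named in the TA were called by some alternatives. Rxrg was called in 3 of 12 other fits and Plin4 and Acss1 in 1 of 12 each, and 0 of 18 fits that left out 1 library called any of them. Plin4 was at 148 ± 41.9 CPM (SD, n = 9) in WT TA and at 273 ± 158 CPM (SD, n = 9) in ∆Ig3-MuSK TA.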
